A study of Homo sapiens with 32 samples.

Results

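The comparison described here sets 8 arrays of vehicle-treated A549 cells against 8 arrays of vehicle-treated H460a cells, 16 of the 32 arrays of the study. The arrays were chosen by their labels alone, and no measured value entered the choice. A549 is a line grown from a human lung adenocarcinoma, and H460a is the labels' name for a line that the series text calls H460, grown from a large cell carcinoma of the lung. Each line was cultured in vehicle for 24 or 6 h, with 4 arrays per line and time, after plating at 35% confluency and a night of rest. The other 16 arrays came from the same lines cultured for the same times in 2 µM RO4929097, an inhibitor of gamma-secretase, the protease that releases the active part of Notch receptors. The question addressed is how far the untreated lines differ in lineage, matrix, signalling and metabolic genes. Each line stands for 1 tumour, so a difference between these lines is not a difference between tumour types. The labels do not say whether the 4 replicates came from separate cultures, so the p-values reflect array-to-array scatter that can be purely technical.

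Lung adenocarcinomas usually keep epithelial features, such as E-cadherin junctions and simple keratins, and can express programmes of the alveolar, airway or gut lining. Large cell carcinomas are defined by the lack of clear glandular, squamous or neuroendocrine features. Both lines are known to have lost the function of STK11, a kinase that senses energy stress, and of KEAP1, the adaptor through which the antioxidant regulator NRF2 is degraded. A549 is in addition known to lack a working SMARCA4, the motor subunit of the SWI/SNF chromatin remodelling complex.

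RNA was measured on an Affymetrix array as a signal intensity per probe set, summarised by the authors with RMA. Levels below are log2 values of that intensity, with 1 probe set standing for each of 19775 genes. Where 3 values stand in a row, they are the lowest, median and highest of the 8 arrays of a line. Differences are A549 minus H460a, averaged with equal weight over both times, ± the standard error from limma (n = 8 arrays per line). A level up to 7.08 is called near background, since 95% of group means of 82 olfactory receptor genes, which lung cells are not known to use, lay at or under it. A difference against such a level is set by that background as much as by the gene.

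SMARCA4 checks the labels, and its level was 7.33, 7.59 and 7.78 in A549, against 10.26, 10.48 and 10.78 in H460a. The lines did not overlap, the difference was -2.9 ± 0.06 (adjusted p = 7.37e-30), and 6 of its 9 probe sets gave differences of -1.68 to -3.55. The other 3, between -0.18 and 0.15, had H460a levels of 5.17 to 7.46. SMARCA2, the alternative motor subunit, averaged 8.72 in A549 and 8.56 in H460a (adjusted p = 0.0714).

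Mean intensity over all probe sets was 468 to 496 on the A549 6 h arrays, and 584 to 602 on the other 12 vehicle arrays, while array medians all lay between 6.56 and 6.67 on the log2 scale. The array of H460a vehicle 6 h replicate 3 had a beta-actin 3′ minus 5′ signal of 2.19 on the log2 scale, a sign of RNA quality, against 0.14 to 0.42 on the other 15. Leaving it out gave 989 higher and 931 lower genes, close to the counts with it below. No named gene that was called changed sign without it, and 4 of the 389 came to less than 1; the part of RNA quality in the results was not tested beyond this.

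The lines differed at many genes of every theme. A gene is called here when its adjusted p is under 0.05 and its difference is at least 1 on the log2 scale, that is, a doubling. By this rule 979 genes (4.95% of 19775) were higher and 966 (4.88%) lower in A549, 1945 (9.84%) in all. Adjusted p alone would pass 11205 genes (56.7%), because the median standard error was only 0.06. All 8 A549 arrays lay on 1 side of all 8 H460a arrays for 5133 genes (26.0%), among them 1920 of the 1945. The mean difference was at least 4 in size on the log2 scale for 81 genes higher and 78 lower in A549. H460a was near background for 374 of the genes higher in A549, and A549 for 268 of those lower. In 127 called genes both lines were near background. With the mean over a gene's probe sets in place of the brightest one, the call was lost for ASNS, B2M, CCND3, COL12A1, COL3A1, COL4A4, CXCL2, CYP26B1, DUSP7, EGFR, FBLN1, FZD1, GSTA4, HMGA2, JUN, LFNG, MAML3, MDM4, MMP2, MT1G, MUC5B, PFKFB4, RARB, TFRC, TGFB1 and TP53INP1 among the genes below. Their means then lay between 0.489 (HMGA2) and 0.933 (MUC5B) where higher, and between -0.44 (COL3A1) and -0.953 (PFKFB4) where lower. Quantile normalization over all arrays ended the call of COL4A6, IRF7, MTAP, MYC, RPL22L1, SRXN1 and TFRC, with -0.799 for TFRC the furthest under the limit. In RNA from whole cultures, fewer cells that use a gene and less of its RNA per cell cannot be told apart.

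The 15 genes furthest above H460a held secreted regulators, imprinted genes and enzymes. CYP24A1, the mitochondrial enzyme that inactivates vitamin D, led with 12.36, 13.01 and 13.58 in A549, against 4.23, 4.38 and 4.58 in H460a. Its difference was 8.58 ± 0.09, with H460a near background on every array. PEG10, an imprinted gene of retrotransposon origin, followed with 11.39, 12.00 and 12.43 in A549, against 4.27, 4.47 and 4.61 in H460a. Others were DKK1, IGFBP1, VCAN, SPINT2 and EREG, described with their groups below, and MARCKS (7.3), BICC1 (7.12), NRP1 (7.11), TCIM (7.03), AKAP12 (6.95), HPGD (6.65), GABRA5 (6.42) and MTUS1 (6.12).

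The 15 furthest below H460a held matrix, adhesion and neural genes. COL8A1, a short-chain collagen, had 4.46, 4.62 and 5.0 in A549, against 12.95, 13.36 and 13.50 in H460a, and its difference of -8.55 ± 0.08 was the lowest of all genes. PRDX2, a peroxiredoxin that breaks down hydrogen peroxide, read -8.21 on its brightest probe set, but -1.08, -0.59 and -0.15 on its other 3, so its size rests on 1 probe set. Others were EPB41L3 (-8.45), a membrane skeleton protein, FGF13 (-7.38), SLITRK4 (-6.93), RTN1 (-6.59), ANK3 (-6.51), GDA (-7.76), PAG1 (-6.73), TMEM100 (-6.71) and HS6ST2 (-6.41). KRT19, CDH11, LAMA1 and TBXT completed this group.

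**Figure D1:**
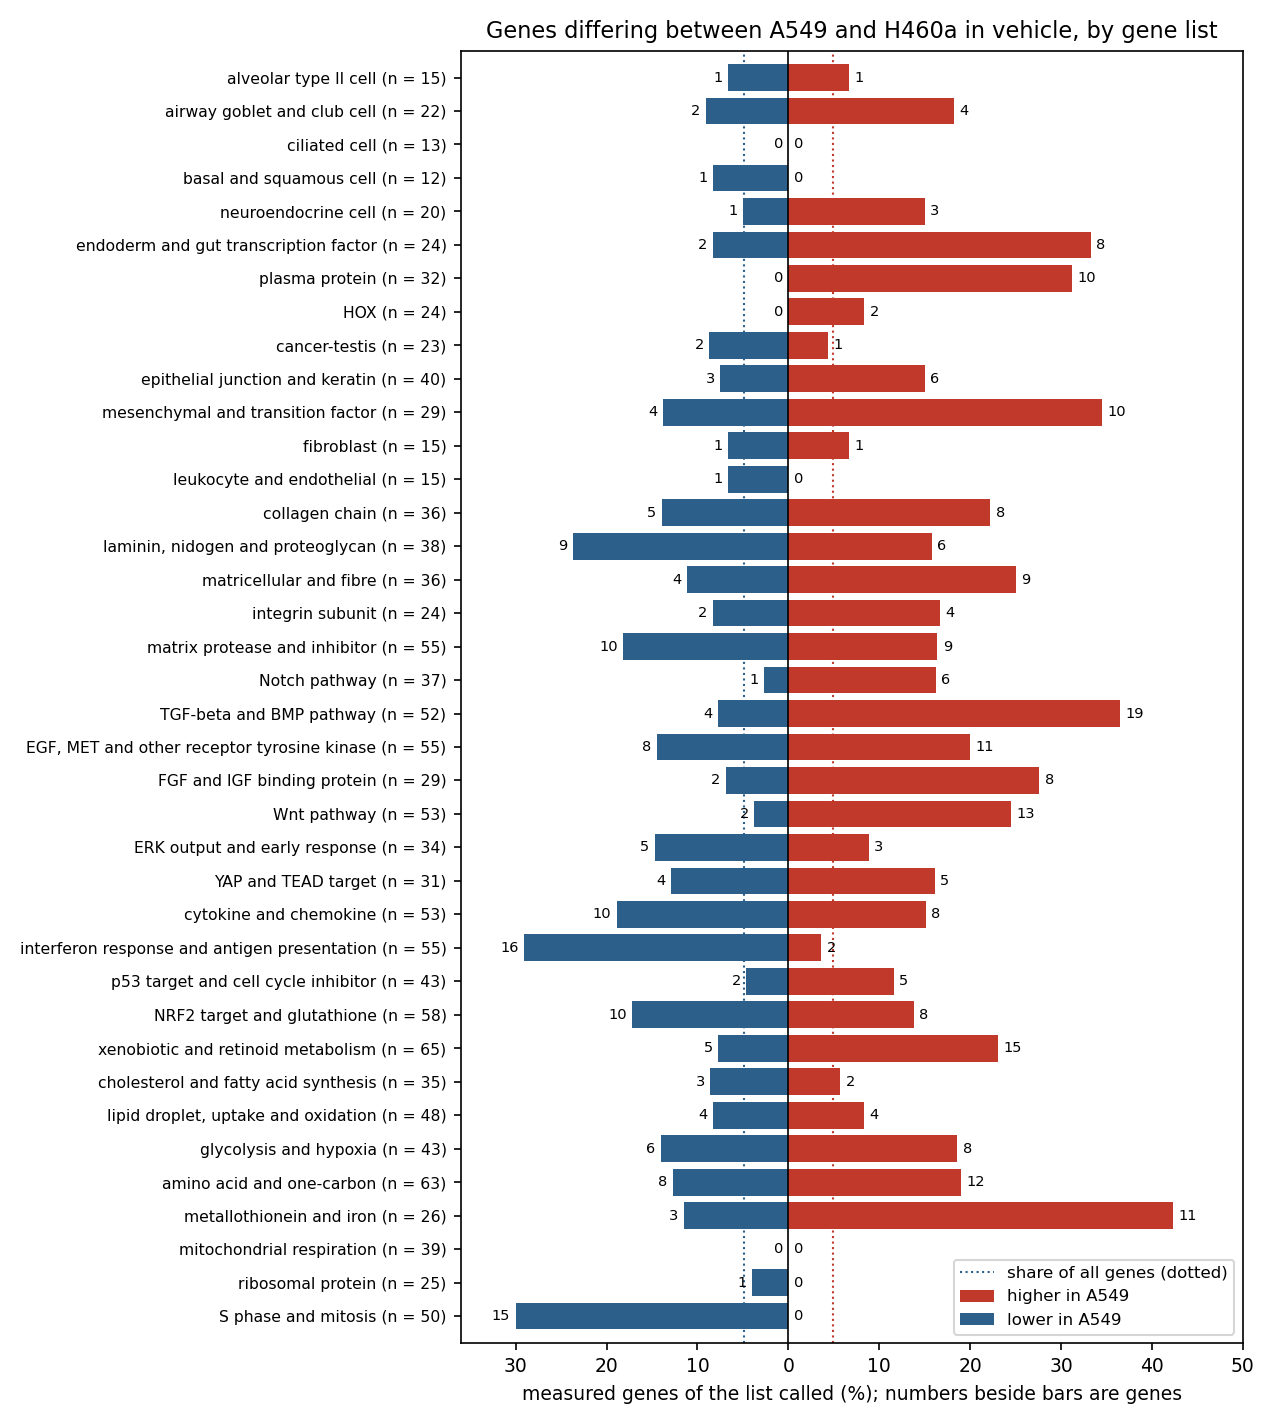
Share of the measured genes of each of the 38 lists that was called higher (red, to the right) or lower (blue, to the left) in A549 than in H460a in vehicle, in percent, with the number of genes beside each bar. Dotted lines mark the shares of all genes, 4.95% higher and 4.88% lower. Metallothionein and iron genes, TGF-beta and BMP genes and mesenchymal genes reach furthest right, and S phase and mitosis genes and interferon genes furthest left. The lists were chosen with earlier results of these data known, and all genes include those near background in both lines. The shares describe the lists and were not tested.

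Epithelial genes were called in both directions, more of them higher than lower in A549. Of 40 measured junction and keratin genes, 6 were higher (15.0%) and 3 lower (7.5%) in A549, beside 4.95% and 4.88% of all genes. CDH1, the E-cadherin of adherens junctions, lay at 9.59, 10.15 and 10.71 in A549, against 4.63, 4.73 and 5.0 in H460a. The groups did not overlap, and the difference was 5.4 ± 0.06 (adjusted p = 2.27e-36). Desmoplakin (DSP), which ties keratin to desmosomes, had 10.79, 11.49 and 12.08 in A549, against 5.52, 5.81 and 6.24 in H460a, a difference of 5.61 ± 0.09. In H460a both CDH1 and DSP were near background.

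SPINT2, an inhibitor of membrane serine proteases in epithelia, had 12.52, 12.75 and 12.94 in A549, against 5.51, 6.17 and 6.99 in H460a. Claudin-2 (CLDN2), a pore-forming tight junction protein, averaged 11.22 in A549 and 6.67 in H460a, and occludin (OCLN) 8.93 in A549 and 6.37 in H460a. The simple keratins went opposite ways. KRT7 had 13.51, 13.78 and 13.97 in A549, against 7.74, 8.44 and 8.81 in H460a, whereas KRT19 had 6.35, 6.64 and 7.02 in A549, against 12.89, 13.70 and 13.87 in H460a. Their differences were 5.38 ± 0.10 and -6.93 ± 0.08, with KRT19 near background in A549. KRT7's other 3 probe sets differed by no more than 0.49, and KRT19's other one, near background in both lines, by -0.46. KRT8 and KRT18, the keratin pair of all simple epithelia, were high in both lines, with means of 13.51 in A549 and 12.87 in H460a for KRT8 and 14.65 in A549 and 13.84 in H460a for KRT18, and neither passed the call. PKP2 (-1.41) and desmocollin-2 (DSC2, -1.65) were lower in A549. EPCAM, a surface marker of most carcinomas, was near background in both, at 5.58 in A549 and 4.8 in H460a, on a single probe set.

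Mesenchymal genes were likewise called in both directions, 10 higher and 4 lower in A549 of 29 measured. Cadherin-11 (CDH11), the cadherin of mesenchymal cells, had 5.79, 6.22 and 7.14 in A549, against 12.97, 13.15 and 13.24 in H460a, a difference of -6.83 ± 0.11 that its 3 other probe sets shared in sign (-5.45 to -9.02). The transcription factors TCF4 (-2.86), ZEB2 (-2.59) and SNAI2 (-1.24) were also lower. Higher in A549 were TWIST1 (3.47), another such factor, N-cadherin (CDH2, 1.51), the tropomyosins TPM2 (5.95) and TPM1 (2.75), the receptor kinase AXL (2.76) and the hyaluronan receptor CD44 (2.57). Vimentin (VIM) averaged 14.40 in A549 and 14.74 in H460a and fibronectin (FN1) 13.59 in A549 and 14.42 in H460a, neither called.

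Transcription factors of endoderm and gut showed 8 higher and 2 lower of 24 measured in A549. FOXA2 and FOXA1, paired pioneer factors of endoderm, went opposite ways. FOXA2 had 9.98, 10.39 and 10.65 in A549, against 5.6, 5.92 and 6.59 in H460a, and FOXA1 had 6.7, 6.98 and 7.23 in A549, against 9.01, 9.43 and 9.56 in H460a. The lines did not overlap for either, with differences of 4.38 ± 0.11 and -2.41 ± 0.07. NR5A2 (3.71), a nuclear receptor of liver and pancreas, EHF (3.59) and ELF3 (3.08), epithelial ETS factors, KLF5 (2.04) and LIN28B (3.79), a blocker of let-7 processing, were higher, and SOX9 (-1.58) was lower. TBXT, the brachyury factor of mesoderm and notochord, was lower in A549. Its level was 7.05, 7.28 and 7.72 in A549, against 13.77, 13.85 and 13.94 in H460a, a difference of -6.54 ± 0.09.

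Plasma protein genes, normally products of the liver, were higher in A549 for 10 of 32 measured and lower for 0. The median difference of the list was 0.38, beside 0.02 over all genes. The fibrinogen chains were all among them. Fibrinogen beta (FGB) had 10.38, 11.06 and 11.77 in A549, against 5.63, 6.07 and 6.11 in H460a, fibrinogen alpha (FGA) had 10.66, 11.26 and 12.13 in A549, against 6.53, 6.81 and 7.0 in H460a, and fibrinogen gamma (FGG) had 9.33, 10.19 and 11.26 in A549, against 6.2, 7.23 and 8.21 in H460a. FGG averaged 11.09 in A549 and 8.12 in H460a at 24 h, against 9.37 in A549 and 6.26 in H460a at 6 h. Complement C5 (4.95) and C3 (3.85), the retinol carrier RBP4 (3.68) and apolipoprotein H (APOH, 3.3) were further members.

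Markers of mature lung cells were called in both directions, at shares to be read beside the 9.84% of all genes. Of 15 alveolar type II genes 1 was higher, the protease CTSH (1.42), and 1 lower, HOPX, 13.3% in all. HOPX, a homeodomain cofactor better known from alveolar type I cells, had 4.57, 4.89 and 5.74 in A549, against 11.07, 11.33 and 11.56 in H460a (difference -6.33 ± 0.13). SFTPC averaged 8.32 in A549 and 8.34 in H460a, and SFTPB 7.71 in A549 and 7.58 in H460a. NKX2-1 averaged 7.41 in A549 and 7.33 in H460a, and NAPSA 7.59 in A549 and 7.44 in H460a. All lay above the background threshold and none was called. The vessel gene PECAM1 (7.64 in A549 and 7.32 in H460a) and the blood cell gene CD14 (8.76 in A549 and 8.61 in H460a) passed that threshold too. Passing it therefore does not show that either line expresses these lung genes. Of 22 goblet and club cell genes 4 were higher in A549, namely CEACAM6 (3.36), FCGBP (2.54), MUC5B (1.7) and TFF1 (1.64), and 2 lower, AGR2 (-1.43) and S100P (-1.58), which were high in both lines, 27.3% in all.

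No ciliated cell gene of 13 was called, and among 12 basal cell genes SERPINB5 alone (8.33%), with -5.62. Of the 13 ciliated genes, 5 were higher and 1 lower by limma's adjusted p alone, which passes 56.7% of all genes. Among 20 neuroendocrine genes, neurotensin (NTS) had 11.08, 11.69 and 12.24 in A549, against 5.37, 5.63 and 5.87 in H460a and chromogranin B (CHGB) 9.14, 10.16 and 11.05 in A549, against 5.0, 5.18 and 5.39 in H460a, both well apart. CPE (2.22) was higher and SCG2 (-1.52) lower. The defining genes INSM1 (4.07 in A549 and 4.11 in H460a) and SYP (7.17 in A549 and 7.1 in H460a) were near background or just above it in both lines. Germline genes of the MAGE family split, with MAGEA6 at 5.12, and MAGEA1 at -4.66 and MAGEB2 at -6.33. These paralogs are alike in sequence, and their probe sets may share signal. In the HOX list 2 of 24 were higher, HOXB8 (2.61) and HOXB3 (1.91), 8.33% called beside 9.84% of all genes.

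Blood and vessel genes, which neither culture should hold, were mostly near background. The leukocyte genes PTPRC, CD3E and MS4A1 and the endothelial genes CDH5 and VWF were near background in both lines, while CD14 averaged 8.76 in A549 and 8.61 in H460a and PECAM1 7.64 in A549 and 7.32 in H460a. KDR, an endothelial receptor, was the single called gene of 15 in that list (6.67%, beside 9.84% of all genes). It had 4.99, 5.14 and 5.28 in A549, against 7.45, 8.43 and 9.64 in H460a. Among 15 fibroblast genes FBLN1 (1.52) was higher and COL3A1 (-1.1) lower, 13.3% in all, with COL3A1 near background in both lines.

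**Figure D2:**
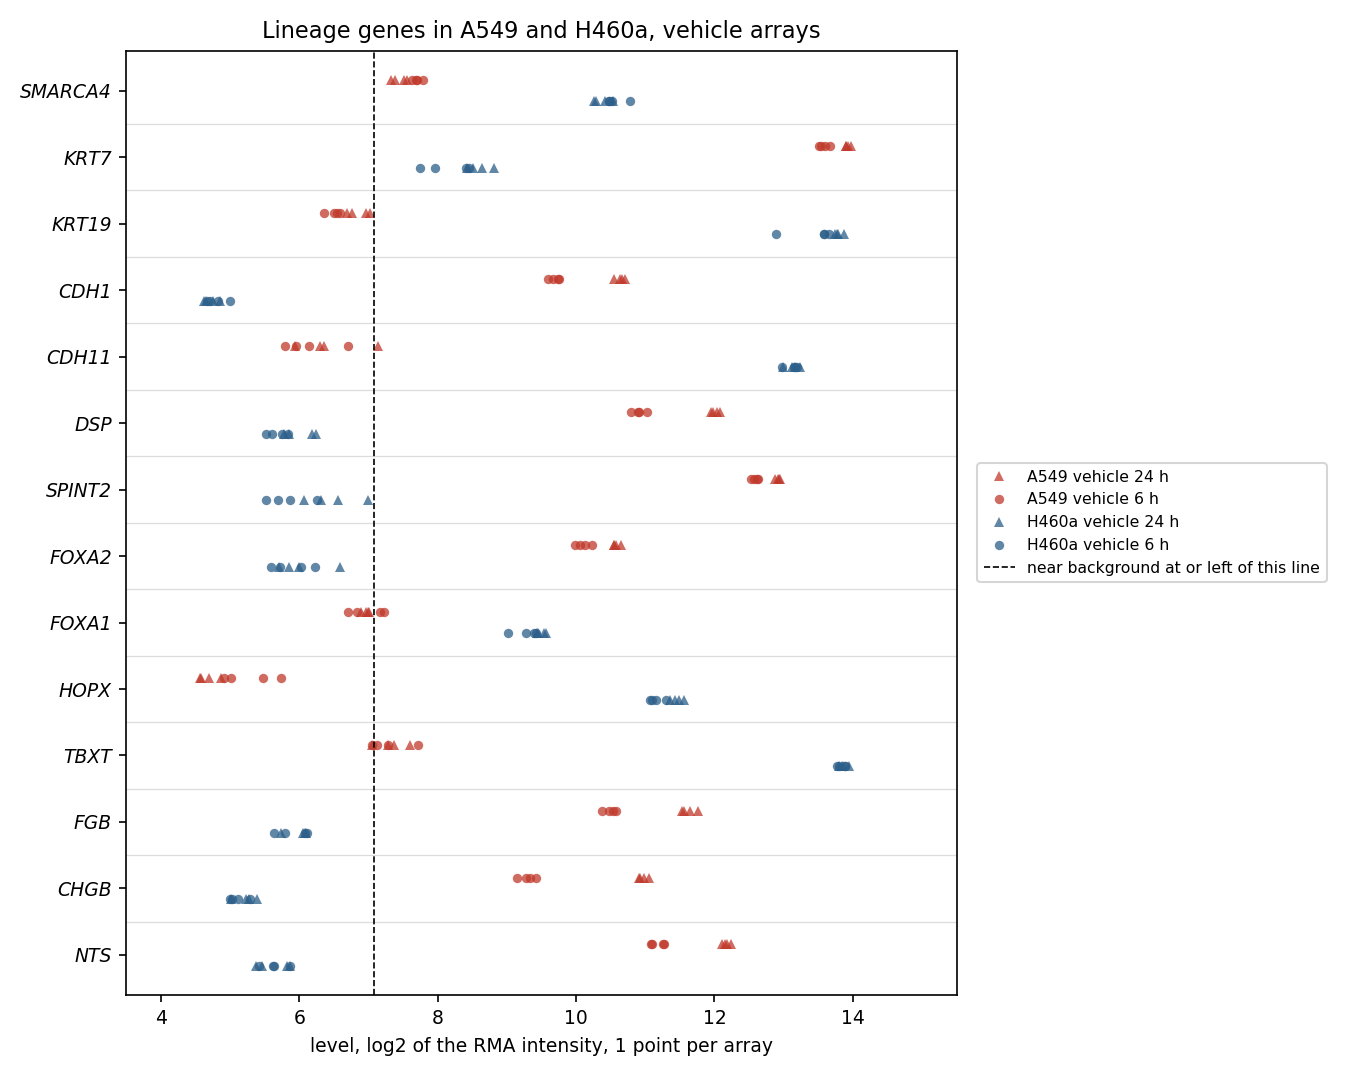
Log2 level of 14 lineage genes on the 16 vehicle arrays, 1 point per array, A549 in red above H460a in blue, triangles for 24 h and circles for 6 h. The dashed line at 7.08 marks near background. No gene shown has overlapping lines, and KRT7 and KRT19, like FOXA2 and FOXA1, go opposite ways.

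Of 36 measured collagen chains, 8 were higher and 5 lower in A549. The basement membrane chain COL4A1 had 11.10, 11.35 and 11.52 in A549, against 7.74, 7.97 and 8.19 in H460a, a difference of 3.38 ± 0.07, and its partner COL4A2 differed by 2.47. COL18A1 (3.74), the source of endostatin, COL7A1 (2.64), the anchoring fibril collagen, COL6A2 (1.98), COL5A1 (1.65) and COL12A1 (1.63) were also higher. The lower ones were COL8A1, given above, COL5A2 (-2.69), the other type IV chains COL4A4 (-1.17) and COL4A6 (-1.1), and COL3A1.

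Basement membrane and proteoglycan genes showed 6 higher and 9 lower of 38. LAMA1, a laminin alpha chain of the early embryo, had 4.08, 4.5 and 5.05 in A549, against 10.82, 11.25 and 11.71 in H460a, a difference of -6.71 ± 0.09. Nidogen-2 (NID2, -4.88), which links laminin to collagen IV, LAMC1 (-1.55) and the proteoglycans SPOCK1 (-3.69), SDC2 (-1.86) and SDC3 (-1.83) were lower too. Versican (VCAN), a large hyaluronan-binding proteoglycan, went the other way, with 11.61, 12.27 and 12.81 in A549, against 5.05, 5.54 and 6.13 in H460a. Its difference of 6.66 ± 0.11 was shared by 4 further probe sets (5.95 to 7.13). Hyaluronan synthase 3 (HAS3, 4.06) and its receptor CD44 were higher with it.

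Among 36 matricellular and fibre genes 9 were higher and 4 lower. The latent TGF-beta binding proteins LTBP3 (2.93), LTBP1 (2.43) and LTBP2 (1.41), fibrillin-2 (FBN2, 3.2) and thrombospondin-1 (THBS1, 1.69) were higher in A549. EFEMP1, a fibulin, had 9.06, 9.32 and 9.54 in A549, against 13.60, 14.05 and 14.14 in H460a, a difference of -4.62 ± 0.06, and CCN2 (-2.56), FBLN5 (-1.8) and ECM1 (-1.64) were lower with it.

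Of 24 integrin subunits 4 were higher and 2 lower. ITGB4, the hemidesmosome subunit, had 9.69, 10.13 and 10.64 in A549, against 6.79, 7.19 and 7.45 in H460a (difference 3.0 ± 0.07), ITGA3 differed by 2.91, ITGA2 by 2.99 and ITGA4 by 1.53. ITGB8, which activates latent TGF-beta, had 4.88, 6.26 and 7.07 in A549, against 10.06, 10.58 and 10.77 in H460a. ITGA6, the usual partner of ITGB4, was lower (-1.16). The list of matrix proteases, their inhibitors and collagen-modifying enzymes gave 9 higher and 10 lower of 55. The protease inhibitor SERPINI1 (3.34), the protease MMP2 (2.31) and the collagen-modifying LOXL2 (3.05) and PLOD2 (2.72) were higher in A549. The lysyl oxidase LOXL1 (-4.87), the proteases ADAMTS1 (-3.68) and MMP16 (-3.33) and the plasminogen activator PLAT (-3.12) were lower.

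Signalling genes differed most often in the TGF-beta and BMP list, with 19 higher and 4 lower of 52 measured and a median difference of 0.28. Among receptors, TGFBR2, the type II receptor that binds the ligand, had 11.77, 12.17 and 12.51 in A549, against 8.05, 8.19 and 8.59 in H460a, a difference of 3.94 ± 0.06. BMPR1B differed by 5.48. Among ligands, TGFB1 (1.55), INHBB (3.18), BMP2 (1.98) and BMP4 (1.74) were higher and BMP5 (-1.37) lower, and TGFB2 averaged 10.53 in A549 and 10.53 in H460a.

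Targets and feedback regulators in this list were among those called higher. PMEPA1, a target that feeds back on SMAD signalling, had 12.32, 12.43 and 12.60 in A549, against 7.55, 8.1 and 8.43 in H460a (difference 4.44 ± 0.05). SMAD7 (3.16), SKIL (2.99), BAMBI (2.99), ID1 (1.88) and ID3 (1.7) were higher as well. Endoglin (ENG, -2.5), a co-receptor, was lower. CCN2 (-2.56) and SNAI2 (-1.24), which TGF-beta induces in many cells and which stand in other lists, were lower too.

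In the Wnt list 13 were higher and 2 lower of 53. The secreted inhibitor DKK1 had 13.19, 13.69 and 14.17 in A549, against 5.73, 6.41 and 6.93 in H460a, a difference of 7.31 ± 0.09. RSPO3 (5.4), which strengthens Wnt signals, and SFRP1 (5.17) and DKK3 (3.65), 2 further secreted antagonists, were also higher, as were RNF43 (2.33) and ZNRF3 (2.08), ligases that remove Frizzled receptors. WNT5A (-2.51) and FZD1 (-1.23) were lower.

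Growth factor genes gave 11 higher and 8 lower of 55 receptor tyrosine kinase genes. Epiregulin (EREG), a ligand of EGFR, had 10.40, 10.56 and 11.02 in A549, against 4.01, 4.16 and 4.49 in H460a, a difference of 6.47 ± 0.08, and EGFR itself differed by 1.26. EGFR arrays overlapped, from 10.15 to 11.19 in A549, against 7.95 to 10.30 in H460a. Its difference was 0.992 without H460a vehicle 24 h replicate 3 and 0.693 with the mean over probe sets, neither of which is called. EGF (-3.56) and NRG4 (-1.73), other ligands of the family, were lower, and NRG1 (1.73) higher. MET averaged 12.10 in A549 and 11.51 in H460a. NTRK3 (2.88), EPHA7 (3.51) and PDGFD (4.04) were higher, and EPHA4 (-2.15) and IGF2R (-1.47) lower.

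Genes that report ERK activity gave 3 higher and 5 lower of 34. DUSP6, the phosphatase that ERK induces against itself, had 8.31, 9.16 and 9.9 in A549, against 11.35, 12.03 and 12.48 in H460a. Its difference was -2.82 ± 0.07, and the ETS factors ETV1 (-3.1) and ETV4 (-1.48), DUSP7 (-1.22) and MYC (-1.03) were lower too, while FOSL2 (1.72), CCND3 (1.25) and JUN (1.03) were higher.

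Of 29 genes of the FGF and insulin-like growth factor binding protein list 8 were higher and 2 lower. IGFBP1 had 10.71, 12.12 and 13.03 in A549, against 4.57, 4.89 and 5.3 in H460a, a difference of 7.11 ± 0.12 on its bright probe set and -0.08 on a second one that lay near background in both lines. IGFBP4 (4.2) and IGFBP6 (2.3) were higher and IGFBP2 (-1.68) lower, and the other binding proteins of the list were not called. The oncofetal RNA-binding proteins IGF2BP2 (3.26) and IGF2BP1 (2.42) were higher in A549. The chromatin protein HMGA2 was higher by 4.06 on its brightest probe set, while its 8 other probe sets, near background in both lines, lay between -0.06 and 0.14. Its mean over probe sets was 0.489, which is not called. YAP and TEAD genes gave 5 higher and 4 lower of 31, VGLL3 (4.77) and AXL against CCN2, PTPN14 (-2.07), RBMS3 (-2.03) and MYOF (-1.44).

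The Notch pathway, the target of the study's inhibitor, had 6 higher and 1 lower of 37. The receptor NOTCH3 was the lower one, with 9.39, 9.55 and 9.7 in A549, against 12.14, 12.56 and 12.76 in H460a, a difference of -2.94 ± 0.06. NOTCH1 averaged 7.84 in A549 and 8.06 in H460a, and NOTCH2 10.18 in A549 and 10.21 in H460a. The ligand JAG1 had 11.12, 11.63 and 12.15 in A549, against 8.87, 9.28 and 9.5 in H460a, and HES1, the standard target gene, had 9.57, 9.75 and 10.09 in A549, against 6.24, 6.57 and 6.87 in H460a. For HES1 the lines were apart by 3.24 ± 0.09 in vehicle, with H460a near background on all 8 arrays. PSENEN, a gamma-secretase subunit, differed by 1.4, the glycosyltransferase LFNG by 1.3 and the coactivator MAML3 by 1.1.

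Cytokine genes were called in both directions, 8 higher and 10 lower of 53, with different members on each side. Of the lower ones, 6 hold a sequence of the kind that NF-kB binds close to their start. Promoters of 4 of them, IL6 and 3 neutrophil chemokines, are shown as examples of secreted factors, a choice made after their values were seen. Each run is the 250 bases before the RefSeq start on GRCh38.p14, on the gene's own strand, with every match to GGANNTTCC on either strand in capitals.
IL6: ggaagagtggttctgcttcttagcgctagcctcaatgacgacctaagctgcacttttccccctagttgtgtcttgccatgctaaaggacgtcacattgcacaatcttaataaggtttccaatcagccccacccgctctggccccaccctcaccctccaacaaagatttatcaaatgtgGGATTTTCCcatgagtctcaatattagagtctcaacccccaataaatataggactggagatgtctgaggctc
CXCL1: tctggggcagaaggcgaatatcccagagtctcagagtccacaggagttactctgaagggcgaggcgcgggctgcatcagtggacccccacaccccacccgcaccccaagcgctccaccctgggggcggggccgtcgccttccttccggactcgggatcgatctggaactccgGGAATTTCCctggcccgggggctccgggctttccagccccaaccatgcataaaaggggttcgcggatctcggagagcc
CXCL2: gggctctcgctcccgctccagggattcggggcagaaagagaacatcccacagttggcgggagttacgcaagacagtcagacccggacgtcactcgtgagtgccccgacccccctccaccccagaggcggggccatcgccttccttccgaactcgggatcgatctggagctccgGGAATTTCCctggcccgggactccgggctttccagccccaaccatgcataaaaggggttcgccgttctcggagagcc
CXCL8: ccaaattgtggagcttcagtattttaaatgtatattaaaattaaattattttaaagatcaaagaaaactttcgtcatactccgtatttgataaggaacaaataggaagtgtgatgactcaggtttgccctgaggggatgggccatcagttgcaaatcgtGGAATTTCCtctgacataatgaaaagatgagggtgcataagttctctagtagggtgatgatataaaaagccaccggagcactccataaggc
The windows lie at chr7:22726950-22727199 (plus strand) for IL6, chr4:73869143-73869392 (plus strand) for CXCL1, chr4:74099196-74099445 (minus strand) for CXCL2 and chr4:73740319-73740568 (plus strand) for CXCL8. The match begins 72 bases before the start in IL6, 78 in CXCL1, 77 in CXCL2 and 91 in CXCL8. Of the 10 lower genes 9 were in the sequence table and 6 held a match, with CXCL3 and TNFAIP3 beside those shown. CXCL1, CXCL2 and CXCL3 are close paralogs, and the CXCL1 and CXCL2 runs are nearly alike around the match. In CXCL3 the match begins 78 bases before the start. The matches of these paralogs are therefore not independent, and the counts of matches were not tested. Of the 8 higher genes 5 were in the table and 0 held one. Over all 27305 promoters of this length 3.88% did. A match is a description and not a measured binding site, and the lack of one says only that these letters are not in this window.

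Interleukin-6 (IL6), an acute-phase cytokine, had 6.03, 6.5 and 6.92 in A549, against 11.92, 12.20 and 12.32 in H460a. The lines did not overlap, and the difference was -5.66 ± 0.07, with A549 near background on every array. The neutrophil attractants followed. CXCL1 had 8.81, 9.33 and 9.95 in A549, against 13.65, 13.93 and 14.30 in H460a, and CXCL8 had 8.97, 9.81 and 10.59 in A549, against 12.50, 12.67 and 12.91 in H460a. TNFAIP3, an inhibitor of NF-kB that NF-kB induces, had 7.17, 7.28 and 7.52 in A549, against 11.80, 12.12 and 12.31 in H460a. The decoy receptor TNFRSF11B (-4.33) and CCL20 (-2.11) were lower as well.

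On the other side, PTGS2, the inducible cyclooxygenase, had 9.46, 9.97 and 10.63 in A549, against 4.09, 4.25 and 4.48 in H460a, a difference of 5.73 ± 0.07, and PTGES (2.23), the next enzyme towards prostaglandin E2, was higher with it. IL18 (4.15), IL15 (3.05) and the chemokine scavenger ACKR3 (3.89) were higher too.

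Interferon and antigen presentation genes were called lower in A549 for 16 of 55 and higher for 2, the other 37 not being called, with a median difference of -0.29. HLA-B, a class I chain, had 9.78, 9.98 and 10.20 in A549, against 11.47, 12.29 and 12.71 in H460a, a difference of -2.26 ± 0.07. HLA-C (-1.69), HLA-F (-2.06) and HLA-G (-1.32) were lower too, though class I genes are alike in sequence and their probe sets may share signal. Their partner B2M (-1.34), the peptide transporter TAP1 (-1.24) and the immunoproteasome subunits PSMB9 (-1.87) and PSMB8 (-1.72) were on the same side.

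Among interferon-induced genes IFI44L had 4.51, 4.84 and 4.98 in A549, against 8.55, 8.9 and 9.5 in H460a. IFI44 (-3.34), ISG20 (-2.67), IFITM3 (-2.52) and IFI16 (-2.39) were lower, and the regulators IRF9 (1.46) and IRF7 (1.07) higher.

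**Figure D3:**
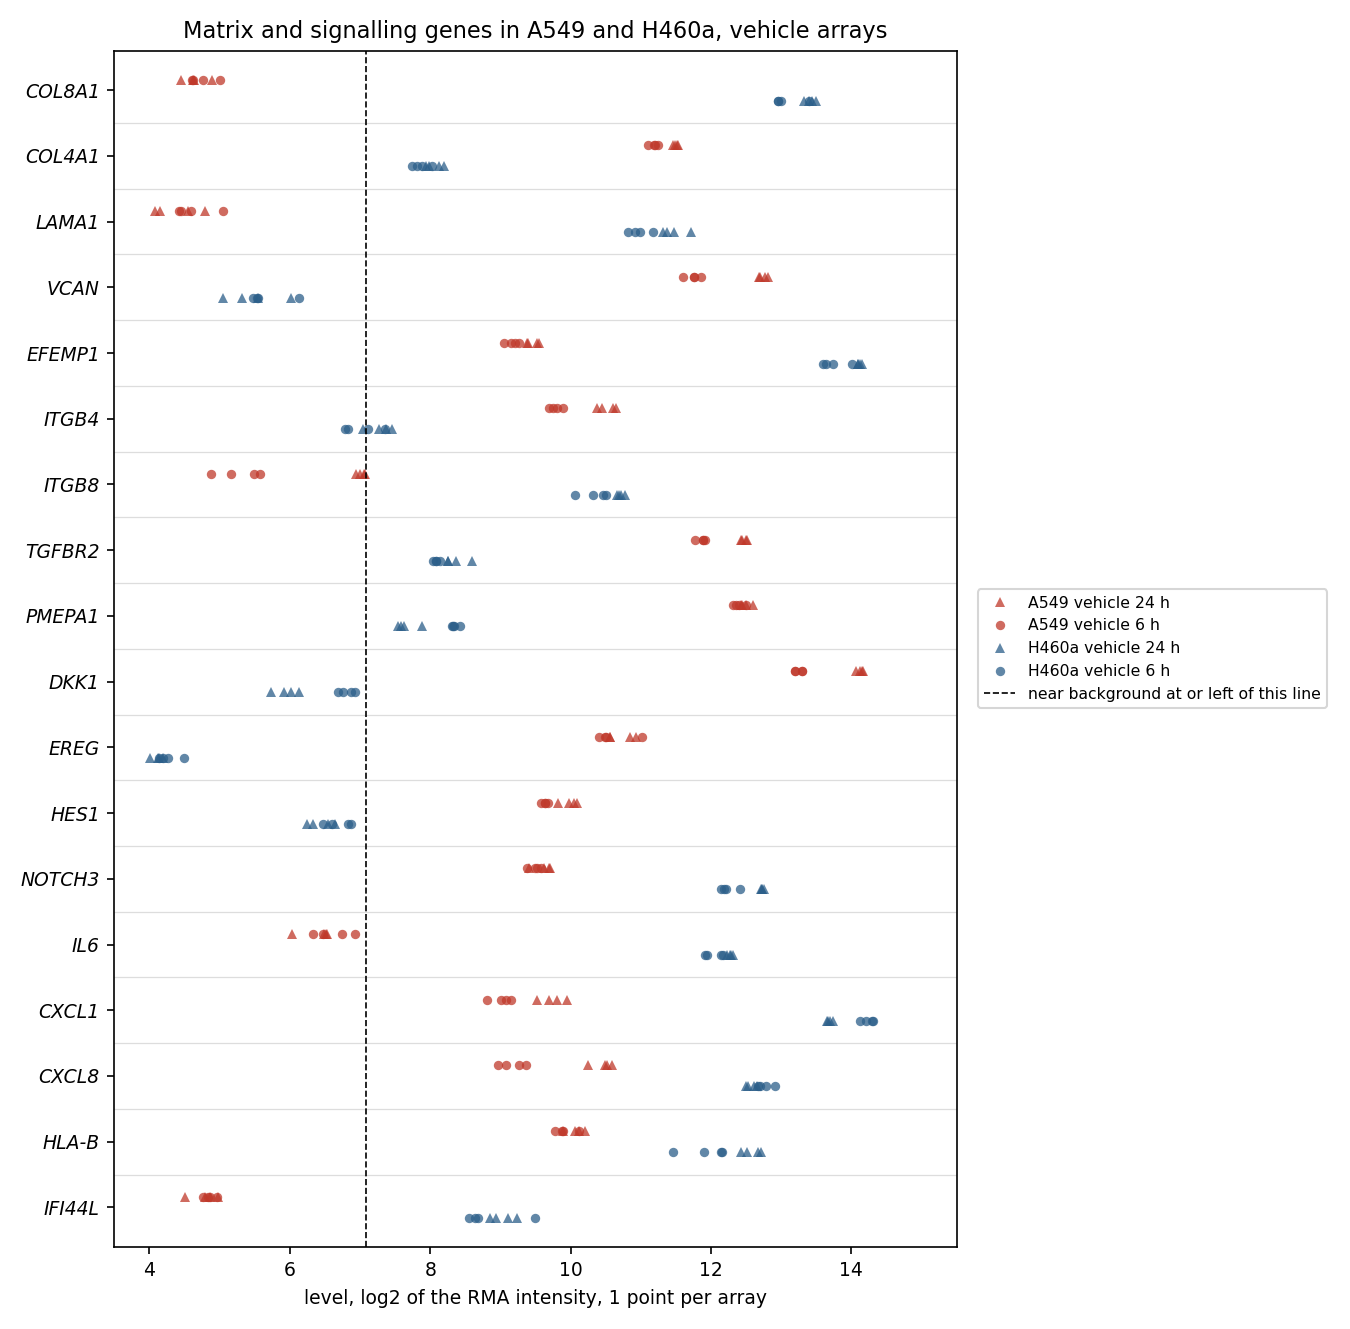
Log2 level of 18 matrix and signalling genes on the 16 vehicle arrays, 1 point per array, A549 in red above H460a in blue, triangles for 24 h and circles for 6 h, with near background at the dashed line. The lines are apart for every gene shown, from COL8A1 (-8.55) to DKK1 (7.31).

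The p53 and cell cycle inhibitor list gave 5 higher and 2 lower of 43 (16.3% called, beside 9.84% of all genes). TP53I3 (1.91) and TP53INP1 (1.57), both p53 targets, were higher, and MDM4 (-1.08), a p53 inhibitor, was lower. CDKN2A averaged 7.64 in A549 and 7.47 in H460a on its brightest probe set. Its other probe sets were near background in both lines, at 5.04 and 5.30 in A549 and 5.14 and 5.27 in H460a. STK11 averaged 9.35 in A549 and 9.18 in H460a. MTAP, the methionine salvage gene beside CDKN2A, was counted as higher from its brightest probe set (1.03), but 3 others gave -4.51, -3.51 and -2.18, with A549 near background on each of them. Its mean over probe sets was -1.55, so the direction of MTAP depends on the probe set.

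Among antioxidant genes, some NRF2 targets had high and near-equal levels in both lines. NQO1, a quinone reductase and standard NRF2 target, had 14.29, 14.54 and 14.73 in A549, against 14.39, 14.54 and 14.61 in H460a, a difference of 0.02 ± 0.04 (adjusted p = 0.694) with a 95% interval of -0.07 to 0.11. AKR1B10, an aldo-keto reductase, had 14.52, 14.76 and 14.86 in A549, against 14.65, 14.77 and 14.91 in H460a, a difference of -0.03 ± 0.04 (adjusted p = 0.503) with an interval of -0.11 to 0.04. The lines overlapped for both genes. These levels lie near the highest value of the file, 15.35, where an array may compress differences. SLC7A11, the cystine importer, averaged 12.57 in A549 and 12.53 in H460a, and KEAP1 10.12 in A549 and 10.53 in H460a. SRXN1, which restores oxidised peroxiredoxins and is another NRF2 target, was lower in A549 by the call (-1.24), but read -0.995 after quantile normalization.

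In all, 8 of 58 NRF2 and glutathione genes were higher and 10 lower (31.0% called). GPX2, the glutathione peroxidase of gut epithelium, had 12.47, 12.90 and 13.24 in A549, against 6.48, 7.16 and 7.54 in H460a, a difference of 5.78 ± 0.10. HMOX1 (2.35), the haem-degrading enzyme, and the export pumps ABCC3 (2.5), ABCC4 (1.86) and ABCC1 (1.16) were higher. Glutathione transferases were called in both directions, 6 lower and 1 higher of the 10 listed. GSTM3 had 8.49, 8.81 and 9.11 in A549, against 12.87, 13.16 and 13.28 in H460a, a difference of -4.3 ± 0.05, and GSTM2 (-2.46), GSTM4 (-2.18) and GSTM1 (-2.06) followed, as near-identical copies whose probe sets may share signal. GSTT1 (-3.47) and GSTO2 (-3.46), of other classes, were lower too, as was GPX3 (-3.39), while GSTA4 (1.31) was higher.

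Xenobiotic and retinoid genes gave 15 higher and 5 lower of 65. ALDH1A1, a retinaldehyde dehydrogenase, had 14.41, 14.71 and 14.97 in A549, against 10.22, 10.85 and 11.24 in H460a, and ALDH2, the mitochondrial acetaldehyde dehydrogenase, had 11.68, 11.98 and 12.32 in A549, against 7.17, 7.78 and 8.05 in H460a. Their differences were 3.9 ± 0.06 and 4.32 ± 0.08. RDH10 (2.7), DHRS3 (3.5), CYP26B1 (1.19) and the receptor RARB (1.43), all of retinoid metabolism or response, were higher. CES1 (-4.1), a carboxylesterase, and CYP1B1 (-2.29) were lower.

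Glucose genes were called both ways, 8 higher and 6 lower of 43. HK2, the inducible hexokinase, had 6.37, 6.67 and 7.04 in A549, against 8.9, 10.35 and 10.75 in H460a, a difference of -3.44 ± 0.12, with the A549 arrays near background. PFKFB3, which drives phosphofructokinase, had 10.97, 11.37 and 11.42 in A549, against 8.0, 8.13 and 8.35 in H460a (difference 3.12 ± 0.07), and HKDC1 (2.96), a further hexokinase, was higher too. Carbonic anhydrase 12 (CA12, 2.55) and the hypoxia factor EPAS1 (2.31) were higher, PFKFB4 (-1.3) and BNIP3 (-1.34) lower. GAPDH averaged 15.16 in A549 and 15.28 in H460a. A list of lipid storage, uptake and fuel choice genes gave 4 higher and 4 lower of 48 (16.7% called, beside 9.84% of all genes). Higher were the droplet coat PLIN2 (3.28), the adipogenic receptor PPARG (2.39) and PDK4 (2.56), and lower TXNIP (-3.8) and PDK1 (-2.32). The PDK genes encode kinases that switch off pyruvate dehydrogenase, and TXNIP restrains glucose uptake. Cholesterol and fatty acid synthesis gave 2 higher and 3 lower of 35 (14.3% called, beside 9.84% of all genes).

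Amino acid genes gave 12 higher and 8 lower of 63. ASS1, which makes arginine's precursor from citrulline and aspartate, had 9.96, 10.14 and 10.40 in A549, against 13.93, 14.12 and 14.31 in H460a, a difference of -3.97 ± 0.04. Serine and one-carbon genes were called both ways, with PHGDH (-1.51) and SHMT2 (-1.88) lower and PSPH (2.65) and GLDC (1.8) higher. ASNS (-1.61) and CTH (-1.64) were lower, and the transporters SLC7A5 (1.52), SLC3A2 (1.11) and SLC1A1 (2.64) higher.

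Metal genes had the largest share of calls of any list, 11 higher and 3 lower of 26, with a median of 0.66. Ceruloplasmin (CP), the copper ferroxidase of plasma, had 11.14, 11.81 and 12.50 in A549, against 5.03, 5.71 and 6.66 in H460a, a difference of 6.01 ± 0.08. The metalloreductases STEAP2 (4.0) and STEAP1 (3.6) and the metallothioneins MT1X (2.01), MT2A (1.55), MT1F (1.63), MT1H (1.52) and MT1G (1.01) were higher, and the metallothioneins are near-identical copies whose probe sets may share signal. SLC39A8, an importer of zinc and manganese, had 8.07, 8.47 and 8.79 in A549, against 13.26, 13.53 and 13.85 in H460a, a difference of -5.07 ± 0.05 with all 5 other probe sets of the same sign. The transferrin receptor TFRC (-1.07) was lower.

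Proliferation genes were lower in A549, 15 of 50 against 0 higher, with a median of -0.67 over the list. Aurora kinase A (AURKA), of the mitotic spindle, had 10.56, 10.65 and 10.77 in A549, against 12.42, 12.50 and 12.85 in H460a, a difference of -1.88 ± 0.05. NUF2 (-1.97) and NDC80 (-1.4), of the kinetochore, CDK1 (-1.18), CCNA2 (-1.23) and MCM7 (-1.35) were among the rest. The list median was -0.38 at 24 h, with 8 lower, and -0.98 at 6 h, with 23 lower, the time at which the A549 arrays had the lowest mean intensity. After quantile normalization over all arrays the median was -0.60. None of 39 respiratory chain genes was called, with a median of -0.28, which was -0.08 after quantile normalization. By limma's adjusted p alone 3 were higher and 24 lower, beside 5689 higher and 5516 lower of all 19775 genes. In 25 ribosomal protein genes 1 was lower, RPL22L1 (-1.19), 4.0% of the list beside 4.88% lower among all genes.

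**Figure D4:**
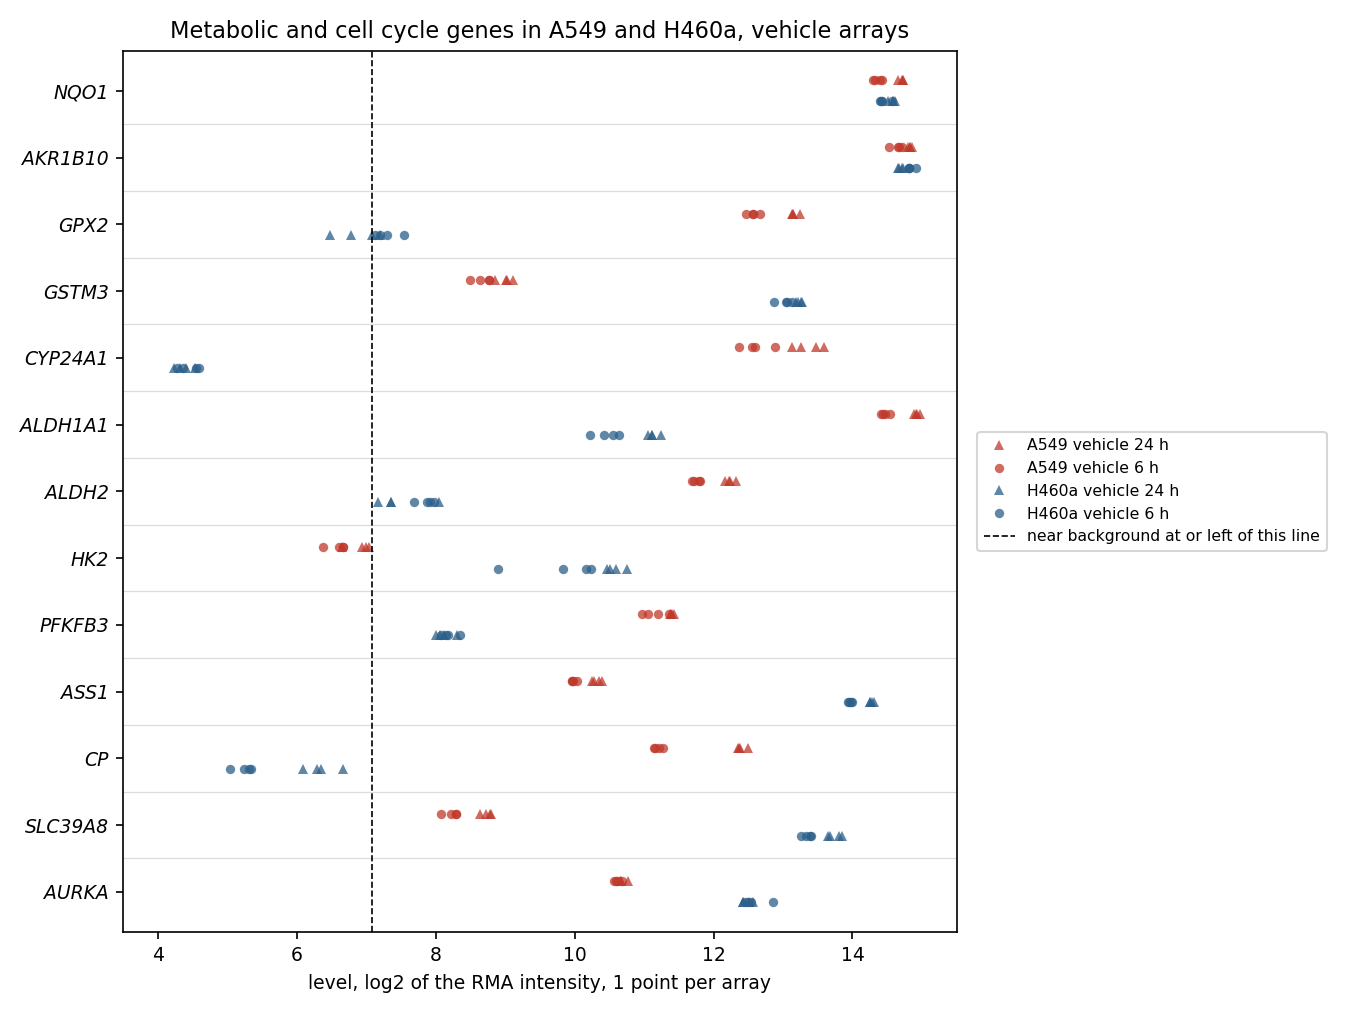
Log2 level of 13 metabolic and cell cycle genes on the 16 vehicle arrays, 1 point per array, A549 in red above H460a in blue, triangles for 24 h and circles for 6 h, with near background at the dashed line. NQO1 and AKR1B10 overlap between the lines near 14.5 to 14.8, and the other genes shown do not overlap.

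All 389 called named genes had the same sign at both times. They were called on the mean over both times in these same arrays, so this agreement is partly built in. At 24 h 2023 genes (10.2%) were called, 1186 higher and 837 lower. At 6 h 2275 (11.5%) were called, 918 higher and 1357 lower. Called the same way at both times were 1509 genes, 74.6% of those at 24 h and 66.3% of those at 6 h, and 0 were called in opposite directions. Quantile normalization gave 1063 higher and 891 lower at 24 h, and 1073 higher and 1131 lower at 6 h.

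A test of the difference between times, 24 h minus 6 h, called 401 genes (2.03%), 335 upward (1.69%) and 66 downward (0.334%). After quantile normalization these were 156 and 87, with 192 genes called the same way by both. The chemokine CXCL2 stood out among them. Its line difference was -1.2 at 24 h and -3.91 at 6 h, with group means of 8.8 in A549 and 10.004 in H460a at 24 h, and 7.87 in A549 and 11.78 in H460a at 6 h. The change between times was 2.71. On its 2 other probe sets, near background in both lines, the line difference was -0.06 and -0.02. CXCL3 behaved alike, at -0.14 and -2.11, and these 2 genes are close paralogs whose probe sets may share signal.

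PHLDA2, a growth-restraining imprinted gene, was at 1.48 at 24 h and -0.54 at 6 h, TUBB2A at -0.05 and -2.01, and RDH10 at 3.75 and 1.66. TXNIP, a glucose-responsive inhibitor of thioredoxin and glucose uptake, was among the 5 downward genes, at -4.82 and -2.78. Its mean was 7.43 in A549 and 12.25 in H460a at 24 h, against 6.8 in A549 and 9.58 in H460a at 6 h. NRN1 (-3.68 and -0.97), PPFIA4 (-2.76 and -0.69), SPAG4 (-1.77 and 0.14) and LINC00189 (-2.78 and -0.77), near background in both lines, were the other 4. With quantile normalization these 10 changes kept their sign, from -2.53 to 2.55. With the mean over probe sets the change of PHLDA2 was 0.926, which is not called.

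**Figure D5:**
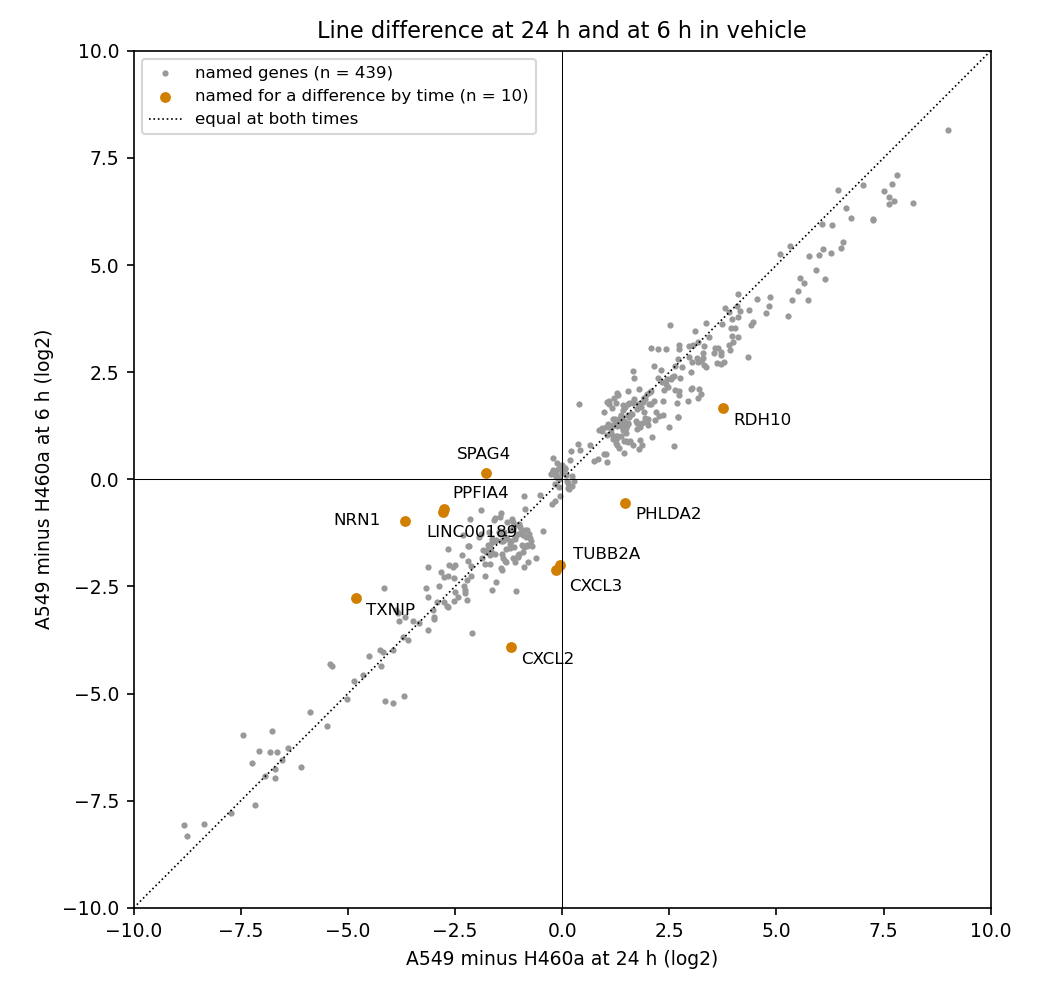
Line difference, A549 minus H460a in log2, at 24 h on the horizontal axis and at 6 h on the vertical axis for the 439 named genes in vehicle. Most points follow the dotted line of equal differences, and the 10 orange genes lie furthest from it, such as CXCL2 at -1.20 against -3.91 and TXNIP at -4.82 against -2.78.

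The line difference was also measured on the 16 RO4929097 arrays. Their values entered none of the vehicle means, but they shared in the estimate of the spread and in the choice of probe sets. There 1927 genes (9.74%) were called, 1073 higher and 854 lower. All 1945 genes called in vehicle had the same sign in the treated arrays, and 1735 of them, 89.2%, were called again, which is 90.0% of the calls in the treated arrays. CDH1 differed by 6.01 in RO4929097 and 5.4 in vehicle, KRT19 by -6.61 and -6.93, IL6 by -5.69 and -5.66, and GPX2 by 6.07 and 5.78. HES1 differed by 1.65 in RO4929097 and 3.24 in vehicle, and PMEPA1 by 3.29 and 4.44. Whether these pairs of differences differ was not tested here.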

How the data were processed

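RNA was hybridised to 32 Affymetrix arrays. The authors deposited 1 linear signal intensity for each of 54675 probe sets, made with RMA per the submitters' processing notes; version and software are not given in these sources. The description field speaks of embryos, which no other label does, and was disregarded. The intensities were log2-transformed here with no further scaling. Left out were 62 control probe sets, 1801 that carry several symbols and 11721 that the platform annotation does not name. The other 41091 stand for 19775 genes, of which 10523 had several probe sets and took the one with the highest mean over all arrays. Gene ids of 41037 probe sets were found in RefSeq and 0 symbols changed.

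Means of the 8 groups were fitted over all 32 arrays with limma 3.58.1 (lmFit, eBayes) in R 4.3.3, with 31.89 degrees of freedom, and the line contrast averaged 24 and 6 h. P-values were adjusted over 19775 genes by Benjamini-Hochberg. The number of arrays limits the precision. Tables and figures used Python 3.11.15, pandas 2.3.3, numpy 2.4.6 and matplotlib 3.10.9. On simulated data with 50 genes changed at each of 1.5, 2, 3 and 4 fold, adjusted p alone recovered 50 of 50 at each size, with 9 false calls among 19775 genes. The minimum difference of 1 on the log2 scale was not applied there, so this is not the recovery of the calling rule. The simulated arrays were drawn independently, which the real replicates may not be.

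Named are the 15 genes furthest in each direction whose arrays do not overlap, up to 4 genes per list and direction, 5 per direction for the change by time, and a set of standard markers. The 38 lists, written from general knowledge, hold 1470 genes, 1337 measured. Members, lists and genes were chosen with earlier results of these data known. The genes with array values in the text and figures, and the other list members given by their difference alone, were chosen after their values were seen. Replicate numbers were not taken to pair the lines, since same-numbered arrays correlated by -0.30 to 0.09 in their deviations from group means. Alternatives were quantile normalization, median centring, vehicle arrays alone, leaving out genes near background, the mean over probe sets, array weights, eBayes with trend and robust, a replicate block, other thresholds, limma treat, and leaving out each array. Using 24 h alone, the treated arrays, or no H460a vehicle 6 h replicate 3 was added after seeing the data.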

Additional observations from a re-analysis of the deposited data

Results flagged for a closer look

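Values of 53 genes and of array measures were screened in 220 groups of 4 arrays for an array far from the other 3, where chance marks about 1 group in 20, and 16 were marked. Among them 7 came from H460a vehicle 6 h replicate 3, the array with the beta-actin 3′ minus 5′ signal of 2.19. It read 10.78 for SMARCA4, where the other arrays of its group read 10.48 to 10.52. It was likewise apart at 12.89 for KRT19 (others 13.58 to 13.65), 13.39 for COL8A1 (12.95 to 12.99), 9.5 for IFI44L (8.55 to 8.68), 14.91 for AKR1B10 (14.81 to 14.82) and 14.57 for NQO1 (14.39 to 14.42).

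In A549, 24 h replicate 4 read 6.03 for IL6 and 24 h replicate 1 read 14.65 for NQO1. A549 6 h replicate 3 read 11.77 for TGFBR2, 6 h replicate 2 read 10.03 for ASS1, and 6 h replicate 1 had a beta-actin 3′ minus 5′ signal of 0.21. In H460a, 24 h replicate 2 read 5.73 for FGB and had a mean intensity of 592.68 (others 601.05 to 601.32), 24 h replicate 4 read 6.98 for FGA, and 6 h replicate 2 read 6.13 for VCAN. None of these gene levels crosses to the other line's range, with the exception of NQO1 and AKR1B10, whose ranges overlap. The mean intensity of 592.68 lies within the range of the A549 vehicle arrays.

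The line difference itself changed between times, by the test of 24 h minus 6 h, for 21 of the genes shown or named for it. Towards a higher A549 value at 24 h it changed by 2.71 for CXCL2, 2.09 for RDH10, 2.02 for PHLDA2, 1.97 for CXCL3, 1.96 for TUBB2A, 1.74 for DKK1, 1.55 for CHGB, 1.48 for CXCL8 and 1.46 for FGA. Smaller changes were 1.36 for ITGB8, 1.27 for CXCL1, 1.24 for IGFBP1, 1.18 for VCAN, 1.11 for JAG1, 1.05 for FGB and 1.03 for CDH1. Towards a lower A549 value it changed by -2.70 for NRN1, -2.08 for PPFIA4, -2.04 for TXNIP, -2.0 for LINC00189 and -1.91 for SPAG4. The A549 6 h arrays had the lowest mean intensity, and quantile normalization moved JAG1 to 0.75, VCAN to 0.81, IGFBP1 to 0.92, FGB to 0.79 and CDH1 to 0.77. The part of array scale in these changes was not tested further.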

How the results depend on the processing

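The counts of 979 higher and 966 lower genes stayed within 1.5 times under every scaling, filter, weighting and left-out array tried. They ranged from 967 to 1001 higher and 931 to 984 lower when 1 array was left out. The threshold mattered more: adjusted p with no minimum difference gave 5689 higher and 5516 lower, a minimum of 2 gave 357 and 315, and limma treat against 1 gave 764 and 708. The 335 upward changes by time became 156 with quantile normalization over all arrays, 160 with it within each line, and 180 with the mean over probe sets. With the replicate block they were 334, and the block changed no other count (979 and 966 in vehicle). In this balanced design the block cannot alter a difference, only its standard error, so these counts cannot decide whether the numbers pair the lines. Leaving out each array gave 279 to 379 upward changes by time, the lowest without H460a vehicle 6 h replicate 3. Of 439 named genes, 77 lost their call in at least 1 setting other than leaving out an array, and MTAP alone reversed, to -1.545 with the mean over probe sets. The medians of 13 of the 38 lists changed sign under some scaling, all of them medians within 0.08 of 0.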

Other observations

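Some called genes lay side by side on a chromosome, by the gene order of RefSeq. The longest run, on chromosome 7, held 8 of 9 measured neighbours higher in A549, namely CASD1, SGCE, PEG10, PPP1R9A, PON3, PON2, ASB4 and PDK4, with differences from 1.16 to 7.47, and PON1 was not called. SGCE and PEG10 are known as paternally expressed imprinted genes. On chromosome 9, PLPP6, CDC37L1, AK3, RCL1, JAK2 and INSL4 were 6 of 7 neighbours higher in A549, by 1.14 to 2.21. On chromosome 19, SPINT2 stood beside SIPA1L3, PPP1R14A, YIF1B and C19orf33, all higher. On chromosome 5, RHOBTB3, GLRX, ELL2, CAST and ERAP1 were lower, with differences from -1.07 to -2.15. These runs were found by searching the data and were given no test.

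By chromosome, the share of measured genes higher in A549 was 9.51% of 715 on chromosome 8 and 7.27% of 1320 on chromosome 19, beside 4.95% overall. The share lower was 9.24% of 303 on chromosome 18 and 7.55% of 888 on chromosome 5, beside 4.88% overall. The median difference was 0.11 on chromosome 8 and -0.06 on chromosome 5 in vehicle. DNA copy number was not measured here.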
